A study of Homo sapiens with 6 samples.

Results

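The long arm of chromosome 20 was compared with the short arm in Calu-3, an established human cell line derived from a lung adenocarcinoma and used as a model of airway epithelium. Long-arm members were all called intervals of 4 lists that started at or above position 29400000 of build hg19, and short-arm members were those that ended below 26300000. The long arm held 1646 intervals and the short arm 403, of 73341 in all 4 lists, and no interval of chromosome 20 lay between the boundaries. The lists came from ChIP-seq, in which antibody-bound chromatin is sequenced and stretches with more reads than an input library are called. There were 2 replicate libraries of the transcription factor EHF (antibody clone 5A.5), 1 library of the histone mark H3K4me1 and 1 of H3K27ac. All of them were made from Calu-3 cells grown in low-glucose DMEM with serum, with 1 input for both EHF libraries and another for both marks, and the labels name no treatment. The arms were selected on the counts and scores of these same lists, in which chromosome 20 was already known to stand out, so every value that sets the arms against each other is a description and has no test.

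EHF (Ets homologous factor) belongs to the ETS family, whose members bind DNA around a GGAA core, and it is known for its part in epithelial cells. H3K4me1 is a histone mark typical of enhancers, whether active or not, and H3K27ac marks the enhancers and promoters that are in use. Where a transcription factor, H3K4me1 and H3K27ac meet, the DNA is often an active enhancer of that cell type.

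The libraries held 8418631 to 21426939 tags (aligned reads). Called intervals took in 0.155% and 0.740% of the tags of EHF replicates 1 and 2, 5.80% of those of H3K4me1 and 28.9% of those of H3K27ac. The value of an interval is the authors' deposited score, which is its tag count after scaling the library to 10000000 tags, and it carries no error of its own. It is not divided by the input, so the number of copies of an arm in these cells enters it. That number was not measured here, and its part in the differences below was not tested. Intervals of shares and of ratios of counts are exact binomial (Clopper-Pearson) 95% intervals and cover counting error only, since neighbouring intervals are not independent. Each mark has 1 library, so its values have no replicate. Genes and sequences at the intervals were not analysed here, nor was the cell type checked against its marker genes, because no annotation or genome of the same build was used.

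All 4 lists were denser on the long arm, by very different amounts. H3K27ac differed least. The long arm held 534 H3K27ac regions, or 15.9 per Mb, and the short arm 281, or 10.7 per Mb, a ratio of 1.49 (95% interval 1.29 to 1.73). H3K4me1 regions numbered 766 on the long arm and 102 on the short arm, which is 22.9 and 3.88 per Mb and a ratio of 5.90 (4.79 to 7.33). The order of the marks therefore turned over between the arms, with more H3K4me1 than H3K27ac regions on the long arm and fewer on the short arm. Covered length told the same: H3K27ac regions took up 3.30% of the long arm and 1.84% of the short arm, and H3K4me1 regions 1.77% and 0.262%.

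EHF peaks were nearly all on the long arm. EHF replicate 1 had 84 peaks there and 2 on the short arm, or 2.51 and 0.0760 per Mb, a ratio of 33.0 (95% interval 8.85 to 277). Replicate 2 had 262 and 18 peaks, or 7.82 and 0.684 per Mb, a ratio of 11.4 (7.09 to 19.6). Sites found in both replicates, called shared sites here, numbered 42 and 2, a ratio of 16.5 (4.29 to 141). Both replicates thus placed over 90% of their chromosome 20 peaks on the long arm, 97.7% in replicate 1 and 93.6% in replicate 2, on 56.0% of the length of both arms. Of the whole lists, the long arm held 5.47% of the replicate 1 peaks and 5.02% of the replicate 2 peaks, beside 2.40% of the H3K4me1 and 1.54% of the H3K27ac regions. For the short arm these shares were 0.130%, 0.345%, 0.319% and 0.811%.

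**Figure D1:**
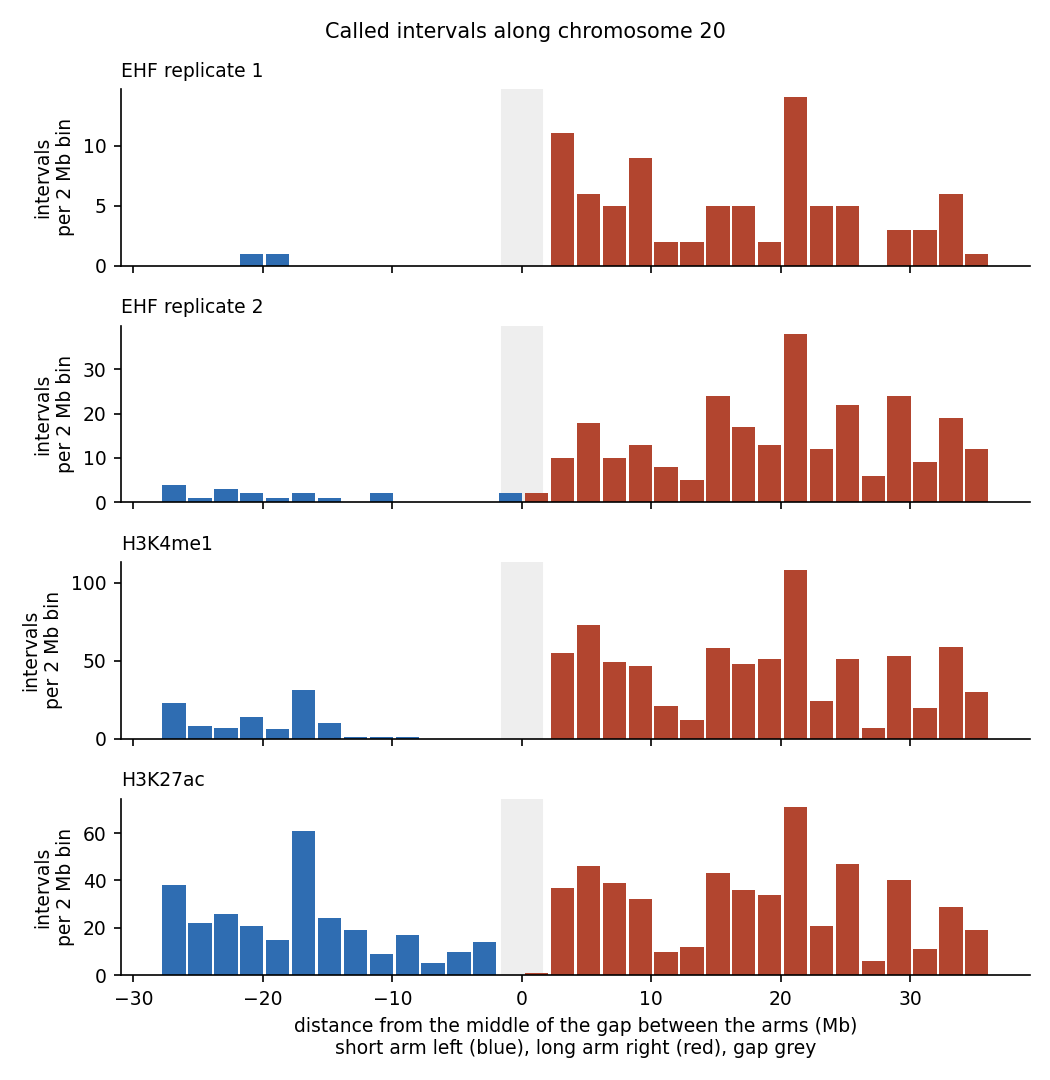
Intervals per 2 Mb bin of chromosome 20 in each of the 4 lists (vertical axes, counts) against the distance of the bin from the middle of the gap between the arms (horizontal axis, Mb), with short-arm bins in blue, long-arm bins in red and the gap in grey. H3K27ac regions fill both arms, whereas EHF replicate 1 has 2 peaks on the short arm against 84 on the long arm.

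Relative to H3K27ac, the long arm was rich in EHF and the short arm poor. The long arm had 15.7 EHF peaks of replicate 1 per 100 H3K27ac regions and the short arm 0.712, while the other chromosomes together had 4.29. In replicate 2 the values were 49.1, 6.41 and 14.6. Shared sites followed the same order, with 7.87 per 100 H3K27ac regions on the long arm, 0.712 on the short arm and 2.14 elsewhere. The long arm stood 3.67-fold (95% interval 2.91 to 4.57) above the other chromosomes in replicate 1 and 3.36-fold (2.96 to 3.81) in replicate 2, and the short arm stood at 0.166 (0.0201 to 0.600) and 0.439 (0.260 to 0.694) of them. The replicates share 1 input library. Counted per Mb of DNA covered by H3K27ac, in place of regions, replicate 2 gave 237 peaks on the long arm, 37.2 on the short arm and 78.0 elsewhere. H3K4me1 behaved alike, with 143 regions per 100 H3K27ac regions on the long arm, 36.3 on the short arm and 91.9 elsewhere. Relative to H3K4me1 the EHF difference was smaller: replicate 2 had 34.2 peaks per 100 H3K4me1 regions on the long arm, 17.6 on the short arm and 15.9 elsewhere. The short arm then stood at 1.11 of the other chromosomes (95% interval 0.658 to 1.76) and the long arm at 2.15 (1.90 to 2.44). Replicate 1 had 10.97 peaks per 100 H3K4me1 regions on the long arm, 1.96 on the short arm and 4.67 elsewhere, which puts the short arm at 0.420 of the other chromosomes (0.0508 to 1.52). Shared sites put it at 0.842 (0.102 to 3.05). All 3 intervals for the short arm include equality with the other chromosomes.

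The marks also scored higher on the long arm. The median H3K27ac score per kb was 42.4 (quartiles 29.9 and 59.98, 534 regions) on the long arm and 21.97 (17.96 and 29.2, 281 regions) on the short arm. On the other chromosomes it was 27.9 (20.4 and 39.9), so that the long arm lay 1.52-fold above it and the short arm at 0.786 of it. Of the long-arm regions, 87.5% scored above the short-arm median. H3K4me1 had a narrower span, with medians of 27.9 on the long arm (quartiles 23.9 and 33.7), 19.96 on the short arm (18.1 and 21.96) and 23.1 elsewhere (19.96 and 25.9). The arms differed little in the width of regions. H3K27ac regions had a median width of 1410 bp on the long arm, 1213 bp on the short arm and 1370 bp elsewhere, and the median H3K4me1 width was 501 bp, the least the caller gives, in all 3.

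The contrast grew with the score per kb that was asked of a region. At 20 per kb or more, 484 long-arm and 170 short-arm H3K27ac regions were left, and at 40 per kb or more, 289 and 19. At 60 per kb or more, 134 were left on the long arm (25.1%) and 1 on the short arm (0.356%), beside 7.90% of the regions elsewhere. H3K4me1 separated at a lower value. At 30 per kb or more there were 297 regions on the long arm (38.8%) and 0 of 102 on the short arm, where a count of 0 leaves room for a share of 2.94%, taking 3 counts as the limit. The highest short-arm H3K4me1 region had 27.9 per kb and the highest long-arm region 65.9 per kb. The caller's own tag threshold was 17 tags for an H3K27ac window and 13 for an H3K4me1 window, or 7.93 and 10.01 after scaling. It was no floor of the deposited scores, of which the lowest were 6 and 8. The lower quartile of the score of short-arm H3K4me1 regions was 10, so many of them lay at or below that threshold. This quartile was 12 on the long arm and 11 elsewhere, both above the threshold. The lowest 10% of scores reached up to 9 on the short arm, 11 on the long arm and 10 elsewhere. Regions at or below the threshold thus made up a larger share of the short arm, though the other chromosomes had them too. The count ratio of 5.90 includes them.

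**Figure D2:**
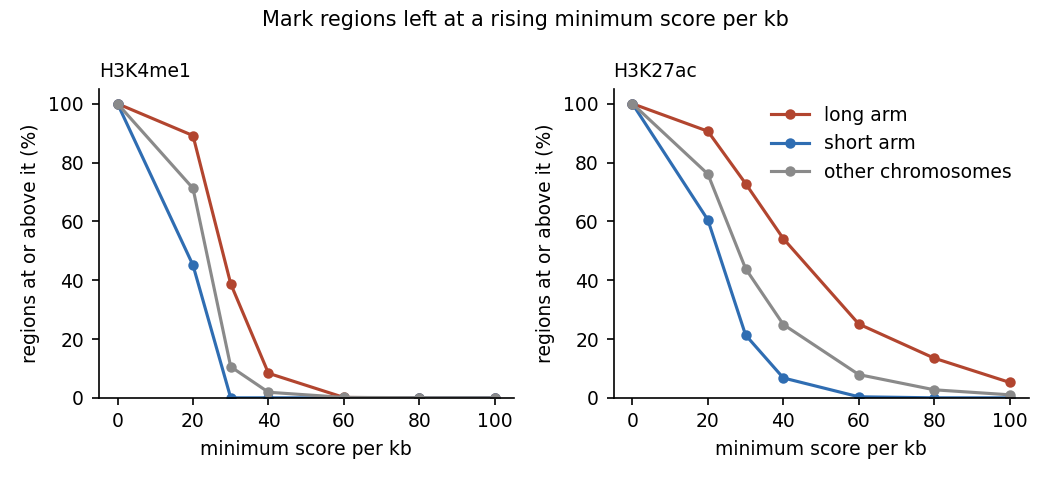
Share of the regions of each mark (vertical axis, percent) at or above a rising minimum score per kb (horizontal axis), for the long arm in red, the short arm in blue and all other chromosomes in grey. At a minimum of 30 per kb the H3K4me1 curve of the short arm is at 0 while 38.8% of the long-arm regions are left.

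The scores of EHF peaks were also compared between the arms. Replicate 1 scores on the long arm ran from 7 to 28 with a median of 10, and the 2 short-arm peaks scored 8 and 9, beside a median of 9 elsewhere. In replicate 2 the range on the long arm was 7 to 76 with a median of 12. On the short arm it was 7 to 29 with a median of 10 (18 peaks), and the median elsewhere was 12. Over all peaks, the ratio of the median score on the long arm to that on the short arm was 1.18 in replicate 1 and 1.20 in replicate 2. The replicate 1 ratio rests on 2 short-arm peaks. In replicate 2 the 95% limits of both medians gave a range of 0.923 to 1.30, which includes equality. The shared sites of the long arm had medians of 12 in replicate 1 and 17.5 in replicate 2, against 8.5 and 7.5 for the 2 of the short arm and 10 and 15 elsewhere. For shared sites the ratio between the arms was therefore 1.41 in replicate 1 and 2.33 in replicate 2, over 2 short-arm sites. The ratio in number was also higher among high replicate 2 peaks, but with wide intervals. Per Mb it was 11.4-fold for all peaks, 13.4-fold at a score of at least 10 and 17.7-fold at 12. Of the peaks that scored at least 15, 84 were on the long arm and 2 on the short arm, 33.0-fold (95% interval 8.85 to 277). At 20 or more, 44 and 2 were left, 17.3-fold (4.51 to 147). Both of these intervals include 11.4. The 2 short-arm peaks, scored 21 and 29, were an isolated pair next to the gap, not found in replicate 1.

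In bins of 2 Mb the difference ran along nearly the whole arm. Of the 16 long-arm bins with 10 or more H3K27ac regions, 15 had a median score per kb above the highest of the 11 such bins of the short arm, and the same 15 were above the median of all 1133 such bins of the genome (27.2). The long-arm bins ranged from 23.6 to 54.7 with a median of 41.9, which is at the percentile of 93.4 among all bins, and the short-arm bins from 19.2 to 26.7. The 3 highest bins were those at 34 to 36 Mb (54.7, percentile 99.4), 32 to 34 Mb (48.9, percentile 98.0) and 52 to 54 Mb (47.6, percentile 97.4). Of the bins with 10 or more regions, the 1 long-arm bin inside the range of the short arm, at 40 to 42 Mb, held 12 H3K27ac regions and a median of 23.6. Smaller long-arm bins inside that range were at 54 to 56 Mb (25.6 over 6 regions) and 28 to 30 Mb (26.5 over 1). Over bins of any number of regions, the lowest of the chromosome were on the short arm. They were at 16 to 18 Mb (16.0 over 9 regions), 20 to 22 Mb (16.8 over 5) and 22 to 24 Mb (19.2 over 10). All 16 long-arm bins with 10 or more H3K4me1 regions had a median above each of the 4 such bins of the short arm, from 24.6 to 31.9 against 19.96 to 21.96. In the 3 bins from 20 to 26 Mb the short arm had no H3K4me1 region, and 5, 10 and 14 H3K27ac regions.

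**Figure D3:**
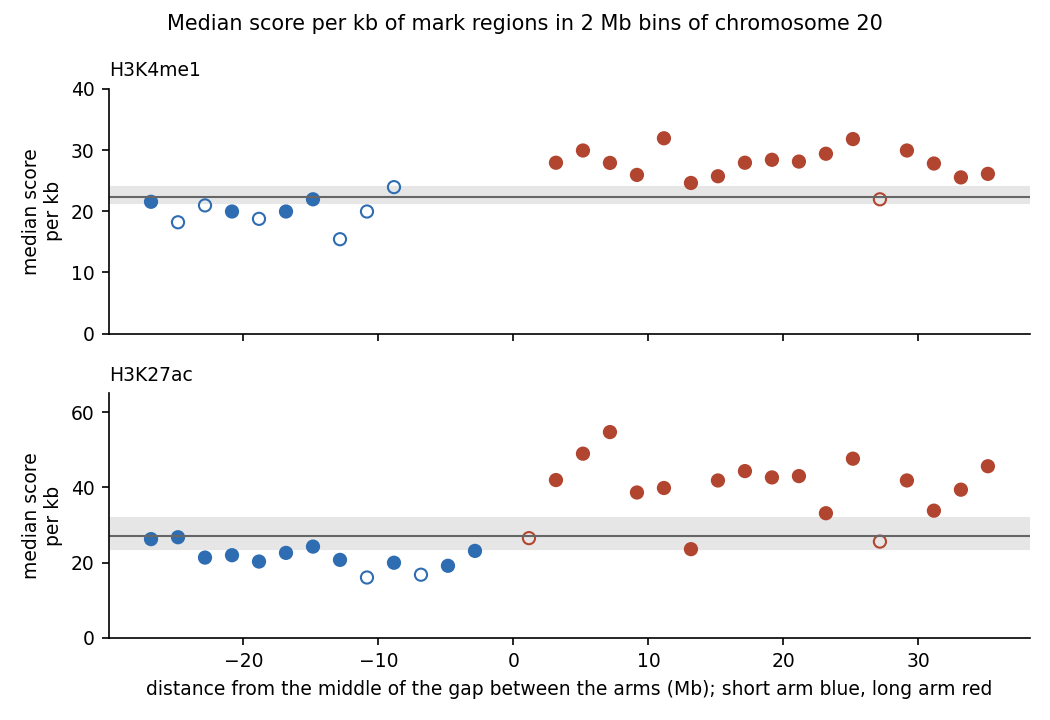
Median score per kb of the H3K4me1 and H3K27ac regions (vertical axes) in each 2 Mb bin of chromosome 20, against its distance from the middle of the gap (horizontal axis, Mb). Filled points hold 10 or more regions and open points fewer, the grey line is the median of such filled bins over the genome and the grey band the quartiles on other chromosomes. Filled long-arm bins (red) lie above the band except for 1 H3K27ac bin at 23.6, and filled short-arm bins (blue) lie below the line.

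Along the long arm, bins with many mark regions also had many EHF peaks. The bin at 48 to 50 Mb held the most intervals of every list, with 14 EHF peaks of replicate 1, 38 of replicate 2, 9 shared sites, 108 H3K4me1 and 71 H3K27ac regions. Next in shared sites were the bins at 36 to 38 Mb with 5 and at 30 to 32 Mb with 4. Across the 18 long-arm bins the count of H3K27ac regions went with that of EHF replicate 2 peaks (Pearson r 0.88, Spearman rho 0.84), of replicate 1 peaks (0.77 and 0.70) and of H3K4me1 regions (0.96 and 0.87). These bins share libraries and differ in how much of them can be called, so the coefficients are descriptions. The short arm had a peak of replicate 2 in 9 of its 14 bins and at most 4 in any bin. Its densest H3K27ac bin, at 10 to 12 Mb, held 61 H3K27ac regions, more than all but 1 bin of the long arm. It held 31 H3K4me1 regions, 2 EHF peaks of replicate 2 and none of replicate 1, with a median H3K27ac score per kb of 22.6.

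The replicates weighted the long arm differently. Replicate 1 had 33 of its 84 peaks (39.3%, 95% interval 28.8% to 50.5%) at or below 40 Mb, and replicate 2 had 61 of 262 (23.3%, 18.3% to 28.9%), on 31.7% of the length of the arm. H3K4me1 and H3K27ac had 32.0% and 30.9% of their regions there. In the bin at 30 to 32 Mb, replicate 1 had 11 peaks and replicate 2 had 10, although replicate 2 had 262 against 84 on the arm as a whole. This split at 40 Mb was chosen after the bins were seen, and the difference was not tested.

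Against the rest of the genome, the long arm of chromosome 20 came first by most of these measures. Each chromosome was divided at its widest stretch without an interval in any list, and the 43 sides with 100 or more H3K27ac regions were ranked. The sides stand in for arms and need not match them. On chromosome 20 the stretch, 26190146 to 29611266, reached past both boundaries of the arms, so the sides held the same intervals as the arms. Values per Mb of the sides use their own lengths, 33.3 and 26.2 Mb for the long and short arm. The long arm ranked 1 of 43 by EHF peaks per 100 H3K27ac regions in both replicates. The second side of chromosome 3 came next with 13.9 in replicate 1 and 35.9 in replicate 2, and the median side had 3.39 and 12.6. It also ranked 1 by H3K4me1 per 100 H3K27ac regions, by H3K4me1 regions per Mb and by the median H3K27ac score per kb, 2 by the median H3K4me1 score per kb and 6 by H3K27ac regions per Mb. In score per kb it had close neighbours. The first side of chromosome 7 had an H3K27ac median of 41.5, inside the 95% interval of the long-arm median (39.95 to 44.5), and an H3K4me1 median of 27.9, the same as the long arm. The short arm ranked 41 and 36 by EHF peaks per 100 H3K27ac regions in replicates 1 and 2, 40 by H3K4me1 per 100, 41 by H3K27ac score per kb and 34 by H3K27ac regions per Mb. Within a chromosome, no other pair of sides differed as much in EHF replicate 2 peaks per 100 H3K27ac regions (7.66-fold on chromosome 20, a median of 1.57-fold over 20 chromosomes). The same held for the median H3K27ac score per kb (1.93-fold against a median of 1.11-fold). By other measures chromosome 20 was not first. The sides of chromosome 13 differed more in H3K4me1 per 100 H3K27ac regions (7.36-fold against 3.95-fold) and in H3K4me1 regions per Mb (6.66-fold against 5.91-fold), and chromosome 20 ranked 4 by H3K27ac regions per Mb (1.496-fold).

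**Figure D4:**
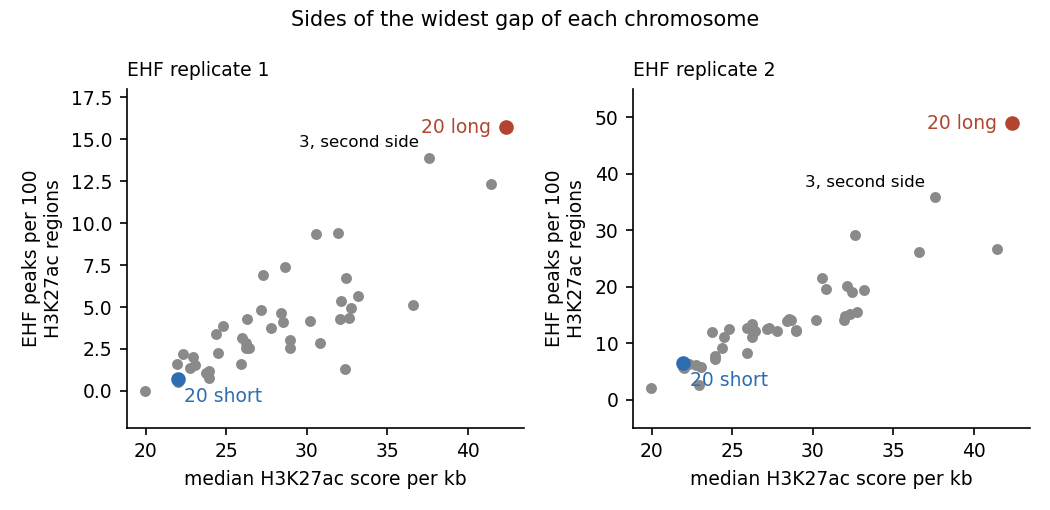
EHF peaks per 100 H3K27ac regions (vertical axes) in each replicate against the median H3K27ac score per kb (horizontal axes), for the 43 sides of the widest gaps of all chromosomes. The long arm of chromosome 20 (red) is the highest point on both axes, and the short arm (blue) lies at the lower left, with 0.712 and 6.41 EHF peaks per 100 H3K27ac regions.

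Over the 43 sides, EHF peaks per 100 H3K27ac regions rose with the H3K27ac score per kb, with the long arm of chromosome 20 at the upper end and the short arm in the lower part. The lowest side by all 3 values was the second side of chromosome 13. Spearman's rho was 0.81 in replicate 1 and 0.94 in replicate 2, and 0.78 and 0.93 without chromosome 20 (41 sides). H3K4me1 per 100 H3K27ac regions gave 0.76 and 0.72. All sides share the same libraries and differ in their DNA content, so these values describe the lists.

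The same relation was seen region by region. All H3K27ac regions were divided into 5 classes of equal size by score per kb, a step chosen after the arm values were seen. The top class, from 44.0 per kb, held 46.3% of the long-arm and 5.34% of the short-arm regions, and the lowest class, up to 19.7 per kb, held 6.18% and 35.2%. An EHF peak of replicate 2 lay in 112 of the 534 long-arm H3K27ac regions (20.97%, 95% interval 17.6% to 24.7%) and in 9 of the 281 short-arm regions (3.203%, 1.48% to 5.99%). The share was 8.99% in the whole list and 8.85% on the other chromosomes. Weighted to the classes of the long arm, the other chromosomes gave 14.5%, and weighted to those of the short arm 5.09%. The long arm was above its weighted value and the short-arm interval held its own. Replicate 1 gave 8.80% (6.54% to 11.5%) on the long arm and 0.356% (0.00901% to 1.97%) on the short arm. These stood beside 2.65% in the whole list and weighted values of 4.29% and 1.41%. Within the top class, 34.4% (28.5% to 40.7%) of 247 long-arm regions held a replicate 2 peak, against 23.3% of the 6666 elsewhere and 3 of the 15 on the short arm. The top class had no set upper limit. In it, 134 of the 247 long-arm regions scored 60 per kb or more, against 2673 of the 6666 elsewhere. Neither this comparison nor the weighted values therefore matched the score within that class. In the middle class the values were 5.71%, 6.20% and 6.25%, each within the intervals of the others.

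**Figure D5:**
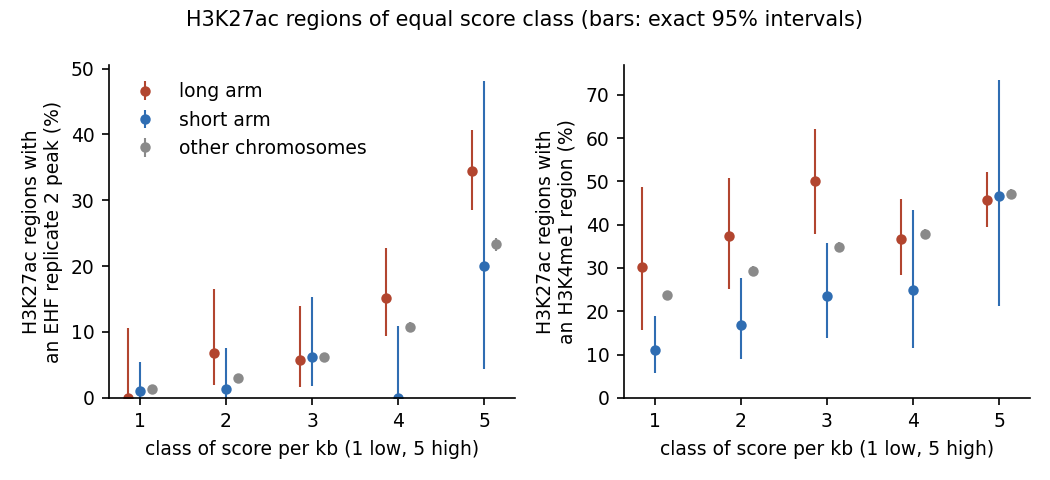
Share of H3K27ac regions that hold an EHF replicate 2 peak (left) or an H3K4me1 region (right) in percent, by class of H3K27ac score per kb from 1 (low) to 5 (high), for the long arm in red, the short arm in blue and other chromosomes in grey, with exact 95% intervals as bars. In the top class 34.4% of the long-arm regions hold an EHF peak against 23.3% elsewhere, and in the lowest class 11.1% of the short-arm regions hold H3K4me1 against 23.7%. The top class has no set upper limit, and scores within it are not matched.

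H3K27ac regions carried H3K4me1 more often on the long arm. It was found in 226 of 534 regions (42.3%, 95% interval 38.1% to 46.6%), against 53 of 281 (18.9%, 14.5% to 23.9%) on the short arm and 34.5% in the whole list. Weighting by score class brought the other chromosomes to 39.9% for the long arm, which lies in its interval, and to 30.5% for the short arm, which lies above its interval. H3K27ac regions with 2 or more EHF peaks of replicate 2 numbered 15 on the long arm (2.81%, 1.58% to 4.59%), against 0.551% in the whole list. The short arm had 0 of 281, for which the limit of 3 counts gives 1.07%.

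Fewer of the long-arm EHF replicate 2 peaks and H3K4me1 regions lay in H3K27ac than on other chromosomes. Of the replicate 2 peaks, 140 of 262 (53.4%, 95% interval 47.2% to 59.6%) overlapped an H3K27ac region by 1 bp or more, where 63.8% of the whole list did and 64.4% (63.1% to 65.8%) of the peaks on other chromosomes. On the short arm it was 9 of 18, with an interval of 26.0% to 73.98% that holds both values. In replicate 1 it was 48 of 84 (57.1%, 45.9% to 67.9%), beside 60.8% in the whole list, which lies in the interval. Outside both marks were 114 replicate 2 peaks of the long arm (43.5%, 37.4% to 49.7%), beside 33.8% of the whole list and 9 of 18 on the short arm. The long-arm replicate 2 peaks outside H3K27ac scored a median of 11 and those inside 14, and 57 of the 122 outside had an H3K27ac region within 10 kb of their centre. On the short arm 3 of the 9 outside did. This was not computed for other chromosomes, so it cannot be read as particular closeness. H3K4me1 regions of the long arm overlapped H3K27ac in 299 of 766 cases (39.0%, 35.6% to 42.6%), those of the short arm in 59 of 102 (57.8%, 47.7% to 67.6%), and 45.2% did in the whole list. Density therefore differed more outside H3K27ac than inside for H3K4me1, by 8.53-fold (6.23 to 11.95) against 3.98-fold (3.002 to 5.36) per Mb. For EHF replicate 2 it differed alike, by 10.7-fold (5.43 to 23.8) outside and 12.2-fold (6.25 to 27.3) inside.

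Shared sites were in H3K27ac more often than all peaks of either replicate. Each site is the merged span of its 2 peaks, and a wider span can overlap a region more easily. With the site centre required to lie in the region, the long arm exceeded the short arm by 28.6 percentage points, in place of 33.3, over 2 short-arm sites. Of the 42 on the long arm, 35 overlapped an H3K27ac region (83.3%, 95% interval 68.6% to 93.0%; 77.7% in the whole list). Of the same 42, 5 (11.9%, 3.98% to 25.6%; 9.51% in the whole list) overlapped H3K4me1, 7 overlapped neither mark, and 26 (61.9%, 45.6% to 76.4%; 51.6% in the whole list) had H3K4me1 within 2000 bp of the centre. Each whole-list value lies in the long-arm interval. No EHF replicate 2 peak of the short arm lay in H3K4me1, 0 of 18, for which the limit of 3 counts gives 16.7%, so that a share below the 7.98% of the whole list was not detectable at this number.

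Recurrence between the replicates was ordinary on the long arm. There 42 of 84 replicate 1 peaks were found in replicate 2 (50%, 95% interval 38.9% to 61.1%), beside 50% of the whole list, and 42 of 262 replicate 2 peaks were found in replicate 1 (16.0%, 11.8% to 21.04%; 14.7% in the whole list). Peaks with higher scores recurred more often, and all 9 replicate 1 peaks that scored at least 15 did so. Of the 20 with a score of 6 to 8, 1 recurred (5.00%, 0.127% to 24.9%), against 28.5% (24.6% to 32.7%) of 505 on other chromosomes. Both replicate 1 peaks of the short arm recurred.

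The strongest shared sites of the long arm were among the strongest of the genome. Of the 768 shared sites ordered by mean rank of score, 6 of the first 50 and 9 of the first 100 were on the long arm. The long arm held 42 of the 768 (5.47%). The first 100 took in 21.4% of these 42, against 12.7% of the 724 on other chromosomes. This difference rests on 9 sites and was not tested. The first, at 58406118 to 58406268, ranked 2 of all sites, with scores of 28 in replicate 1 and 76 in replicate 2. The H3K27ac region around it was 7915 bp wide with 86.9 per kb, and H3K4me1 began 267 bp from its centre. The second, at 30865336 to 30865486, scored 23 and 51 and was outside both marks, 1211 bp from H3K4me1 and 11378 bp from H3K27ac. The third, at 50361211 to 50361369, scored 19 and 57, and its H3K27ac region was 3931 bp wide. The site at 30292531 to 30292689, scored 25 and 39 in the longest H3K27ac region of the chromosome.

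The next 6 ranked from 35 to 107 of 768, and all of them touched an H3K27ac region. Those at 48854020 to 48854170 (scores 15 and 45), 48410350 to 48410522 (20 and 29) and 49378084 to 49378240 (13 and 39) were in the dense bin at 48 to 50 Mb. The first of these 3 was the only one of the 10 to overlap an H3K4me1 region, whose edge was 55 bp from the site centre. The site at 56592801 to 56592951 scored 13 and 37 in a region of 9586 bp with 168 per kb, the highest H3K27ac value per kb at any of the 10. The site at 52750059 to 52750209 scored 13 and 33, and the last, at 32377526 to 32377680, scored 18 and 23, both in H3K27ac regions of over 12 kb (12750 and 12452 bp). In 7 of the 10 sites H3K4me1 was within 2000 bp of the centre.

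The short arm had 2 shared sites, both near the bottom of the order. The site at 9310939 to 9311126 scored 8 in both replicates, ranked 757, and was 27256 bp from H3K27ac. The site at 6104082 to 6104300 scored 9 and 7, ranked 765, and its H3K27ac region was 4335 bp wide with 45.2 per kb, in the top class of score per kb. The peaks of replicate 2 on the short arm thinned toward the gap, with 11 of 18 at or before 9311063 and none between 16710638 and 26188822. The highest were an isolated pair at 26188822 to 26188946 and 26190021 to 26190145, with scores of 21 and 29. They lay 583695 bp and 584894 bp from the nearest H3K27ac region, next to the gap, and were not found in replicate 1.

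The longest H3K27ac regions of the long arm were long and high at once. The first, at 30278662 to 30312083, was 33422 bp wide with a score of 4597 (137 per kb), rank 8 by width and 5 by score of 34638 regions. It held 2 EHF peaks of replicate 1, 4 of replicate 2 and 6 H3K4me1 regions, and was the only region of the chromosome with 2 shared sites. The second, at 56258787 to 56290172, was 31386 bp wide with a score of 6193 (197 per kb), rank 4 by score, and held 9 EHF peaks of replicate 2, 1 of replicate 1 and 6 H3K4me1 regions. Those at 52718771 to 52744725 and 49340889 to 49365411 were 25955 and 24523 bp wide, with 90.04 and 83.5 per kb, 3 and 1 peaks of replicate 2 and 1 shared site each. The fifth, at 60929823 to 60943364, was 13542 bp wide and had 2 replicate 2 peaks and no shared site.

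The 5 longest H3K27ac regions of the short arm held no EHF peak of either replicate. Most wide regions elsewhere held none either. In the widest of 5 classes of equal size by width, 19.1% of the regions on other chromosomes held a replicate 2 peak and 6.55% a replicate 1 peak. On the long arm these shares were 43.4% and 22.2%, and on the short arm 3 and 1 of 49 regions. A lack of peaks in 5 regions is therefore little evidence by itself. The longest, at 10644207 to 10658315, was 14109 bp wide, wider than the fifth of the long arm, yet scored 694 (49.2 per kb) against 1199 (88.5 per kb). A second region of the same bin, at 10684917 to 10694332, was 9416 bp wide with 68.4 per kb, the highest value on the short arm. Those at 25226081 to 25238280, 25215295 to 25222075 and 11133492 to 11140239 were 12200, 6781 and 6748 bp wide, with 36.5, 45.3 and 31.9 per kb. Of the 5, 2 held 1 H3K4me1 region each, both in the bin at 10 to 12 Mb.

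The longest H3K4me1 regions showed the same order. On the long arm they were at 43963801 to 43970127 (6327 bp, score 243), 34690891 to 34694919 (4029 bp, score 139) and 60930827 to 60934562 (3736 bp, score 130). Each overlapped 1 H3K27ac region and held 1 EHF peak of a single replicate. On the short arm the longest were at 14429577 to 14431845 (2269 bp, score 35), 12964162 to 12966192 (2031 bp, score 46) and 6687711 to 6689514 (1804 bp, score 43). Each overlapped an H3K27ac region and held no EHF peak.

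At the boundaries, the last short-arm intervals were the isolated EHF pair, of which the second ended 109855 bp before the boundary, and an H3K27ac region at 25603809 to 25605189 with 18.8 per kb. The last H3K4me1 region of the short arm was at 19974665 to 19975165, 6324835 bp before the boundary. The first long-arm intervals were an H3K27ac region at 29611267 to 29612549 with 26.5 per kb and an EHF peak of replicate 2 at 29619941 to 29620065 with a score of 10. H3K4me1 began at 30103938 to 30105132 with 40.2 per kb, beside an H3K27ac region at 30102014 to 30103272 with 35.7 per kb, and the first EHF peak of replicate 1 was at 30148762 to 30148912 with a score of 10.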

How the data were processed

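Intervals were called by the authors and deposited as 4 lists. The submitters' processing notes list HOMER 1.2, Bowtie 1.0.0 and build hg19. Per the file headers, findPeaks was run on each library separately, in factor style for EHF and in histone style for the marks, at a false discovery rate of 0.01, with 4-fold over input and 4-fold over the surrounding 10 kb (Poisson p of 1e-04 each). Mark regions were stitched from windows of 500 bp. The deposited score is the tag count scaled by the authors to 10000000 tags and rounded, with no division by input, and was used to describe and rank within a list. Neither the reads nor the input libraries were analysed here.

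Counts, widths and scores per arm were computed with pandas 2.3.3, scipy 1.17.1 and numpy 2.4.6 under Python 3.11.15. Intervals overlapped if they had 1 bp or more in common. A shared site was a replicate 1 peak that met a replicate 2 peak, taken as the merged span of both peaks. The short arm was taken as 26.3 Mb and the long arm as 33.5 Mb, to the last interval. Overlap, ratio and median functions were tested on simulated data. Separate cultures for the 2 EHF replicates are not stated in the labels, so their spread may be technical. Members, named items and alternatives were chosen with earlier results of these data known. Named items were the 10 long-arm and 5 short-arm shared sites with the best mean of their 2 score ranks (2 exist on the short arm), the 5 longest H3K27ac and 3 longest H3K4me1 regions per arm, H3K27ac regions with 2 or more shared sites, and the extreme bins and the intervals next to the boundaries. A gene list and markers also chosen were not used, for lack of an hg19 annotation.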

Additional observations from a re-analysis of the deposited data

How the results depend on the processing

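The 10 comparisons between the arms were recomputed under 52 alternatives, and no direction changed except in the recurrence of replicate 1 peaks. There the short arm has 2 peaks, and the difference, long minus short arm, was -50.0 percentage points. It was -50.0 with peak centres within 100 bp and -35.9 for scores of 9 or more, and it turned to 30.9 with replicate 2 reduced to its top peaks. Asking for regions at or above the median score per kb moved the ratio of regions per Mb from 1.49 to 3.92 for H3K27ac and from 5.90 to 38.1 for H3K4me1. Sums of scores over sums of widths gave ratios of 2.43 for H3K27ac and 1.48 for H3K4me1 in place of the ratios of medians, 1.93 and 1.40. With shared sites alone the ratio of median EHF scores was 1.41 in replicate 1, from 1.18, and 2.33 in replicate 2, from 1.20, each over 2 short-arm sites. In both cases the cause was not tested. Without replicate 1 or without replicate 2, the ratio of EHF sites per Mb was 11.4 and 33.0 and that per 100 H3K27ac regions 7.66 and 22.1. The share in H3K27ac then differed by 3.43 and 7.14 points in place of 33.3. The 33.3 points had a range of -30.1 to 91.8, over 2 short-arm sites, and the other values had ranges of -26.8 to 33.6 and -52.9 to 66.6. With replicate 2 reduced to its top peaks, in the number that replicate 1 holds, 26 shared sites were left on the long arm and 0 on the short arm, at least 6.81-fold higher per Mb by the limit of 3 counts. Counted against H3K27ac regions at or above the median score per kb, the ratio of shared sites fell from 11.1 to 4.21. The short arm, with 2 and 18 EHF peaks, limits every EHF ratio. No paired test was made, because the arms were selected on these lists, each mark has 1 library and the EHF replicates share 1 input. Both arms lie in every library, and each ratio is a value within 1 library or within the sites shared by both EHF libraries.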
